A study of Mus musculus with 10 samples.

Results

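Transcript levels of 7 genes that let cells sense the alarmins interleukin-33 (IL-33) and interleukin-25 (IL-25) and the cytokine interleukin-1 (IL-1) were examined in RNA sequencing of mouse regulatory T cells (Tregs), the Foxp3-expressing CD4 lineage that restrains immune responses. The genes were chosen by name and are 7 of the 23992 gene symbols in the tables: Il1rl1, Il17rb, Il1r1, Il1r2, Il1rap, Ptgdr2 and Myd88. All 7 were found, 6 under their own symbol and Ptgdr2 under its older symbol Gpr44. Where a gene had several transcript rows, the row with the highest mean reads over the 10 libraries stood for it.

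All cells came from mice of the C57BL/6J strain. Spleen nTregs were stimulated in culture for 24 h with anti-CD3 + anti-CD28, which engage the T cell receptor (TCR), either alone (TCR, 2 libraries) or with thymic stromal lymphopoietin, an epithelial cytokine (TCR + TSLP, 2 libraries). Lung Tregs came from allergic lungs of OVA-immunized mice (OVA is ovalbumin) of the genotype Foxp3YFP-Cre (lung control, 3 libraries) or Crlf2fl/fl Foxp3YFP-Cre (Crlf2-deleted, 3 libraries). Both lung genotypes thus carried the Cre, which is made where Foxp3 is transcribed, so deletion is aimed at Foxp3-expressing cells. No source used here gives the animals' age or says that replicates were separate animals or cultures. The p-values therefore reflect the spread among these libraries alone, and that spread may be technical. The TCR-stimulated libraries were made with a stranded total RNA kit, and no kit is named for the lung Tregs.

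IL-33 binds ST2, the product of Il1rl1, which pairs with the accessory protein encoded by Il1rap. IL-1 binds the signalling receptor encoded by Il1r1, which uses the same accessory protein, and the decoy receptor encoded by Il1r2, which lacks a signalling domain. Both signalling receptors recruit the adaptor Myd88 and lead to NF-kB. IL-25 binds the chain encoded by Il17rb, which pairs with Il17ra and signals through Traf3ip2 (Act1), and Ptgdr2 encodes CRTH2, a prostaglandin D2 receptor found on type 2 immune cells. ST2-positive Tregs are known from lung, fat and other non-lymphoid tissues, where they tend to express Gata3.

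The reads on the transcripts used for each gene ranged from 27237313 to 51671901 in the spleen cultures and from 1439675 to 18349039 in the lung libraries, the smallest being lung control library 2. Crlf2, the deleted gene, stood at 115 ± 27.7 in control and 6.44 ± 2.76 CPM in Crlf2-deleted lung libraries (SD, n = 3 each; CPM are counts per 1e6 reads after scaling). In edgeR this was a log2 difference of -4.16 with an adjusted p of 0.00465 and an SE of 0.36. The 6 Treg markers (Foxp3, Il2ra, Ctla4, Ikzf2, Tnfrsf18 and Lrrc32) were detected in every library. Their summed RPKM (reads scaled to transcript length and library total) was 298 to 437 in the spleen cultures, 150 to 268 in lung control and 289 to 391 in Crlf2-deleted libraries. Lung control library 3 stood apart from the other lung libraries in markers of other cells. The summed RPKM of 10 macrophage and dendritic cell markers was 54.4, 88.7 and 1210 in control libraries 1 to 3. Crlf2-deleted libraries held 405, 400.2 and 489, so this sum stood higher in every Crlf2-deleted library than in control libraries 1 and 2. Most of the sum was Lyz2 (mean RPKM 254 in control and 178 in Crlf2-deleted libraries) and Chil3 (175 and 234). The next marker, Cd68, had 13.1 and 16.6, so the sum says little about the others. In control library 3 the sum was 124 for 6 neutrophil markers (8.80 to 10.3 in the other lung libraries) and 12.7 for 8 mast cell markers (0.222 to 0.573). The same library held 14.9 for 4 basophil markers (0.150 to 0.500) and 10.2 for 4 eosinophil markers (0.590 to 0.906). In each lung group 2 of the 4 eosinophil markers had reads in every library and 1 had none in any. Markers of lung epithelium, led by the club cell secretory gene Scgb1a1, summed to 5224 to 27740 in control and 1158 to 8079 in Crlf2-deleted libraries, against 2.74 to 3.21 in the spleen cultures. Mast cells, basophils and eosinophils can themselves carry ST2 or CRTH2, and in bulk RNA fewer cells of a type and less RNA per cell cannot be told apart.

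**Figure D1:**
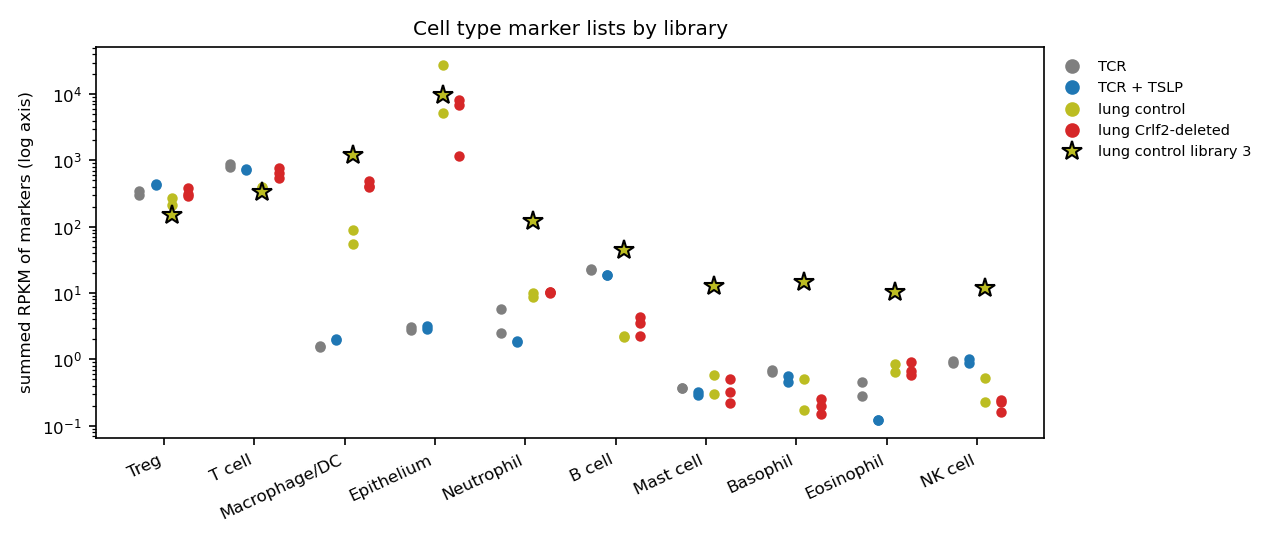
Summed RPKM of each fixed marker list on a log axis, 1 point per library and 1 colour per group. The star is lung control library 3, at 1210 for macrophage and dendritic cell and 124 for neutrophil markers, while the T cell sums of the 3 control libraries (337 to 403) lie below those of the Crlf2-deleted ones (550 to 759).

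Il1r2, Il1r1 and Il1rl1 lie in this order on chromosome 1 of the mm10 build, from 40084692 to 40125230, from 40222480 to 40316201 and from 40404864 to 40465418. Il17rb is on chromosome 14 (29996168 to 30008896), Il1rap on chromosome 16 (26581509 to 26730128), Ptgdr2 on chromosome 19 (10924519 to 10942511) and Myd88 on chromosome 9 (119335934 to 119340018). Promoter windows of 300 bases (250 before and 50 after a start site) are shown for the 3 receptor genes with the largest log2 fold changes toward higher levels in Crlf2-deleted lung Tregs, to set their GATA and STAT motifs side by side. Il1rl1 is shown with a distal and a proximal start, although its annotated span begins farther upstream, at 40404864. The sequences are RefSeq's on GRCm38.p6, which is mm10, printed 5′ to 3′ on the gene's strand. Capitals mark matches, on either strand, to the GATA motif, whose forms are AGATAA and, with the last base changed, AGATAG, as well as TGATAA and, changed likewise, TGATAG, or to the STAT motif TTCNNNGAA. No match of one motif overlapped a match of the other.
Il1rl1 distal, chr1:40429320-40429619, plus strand: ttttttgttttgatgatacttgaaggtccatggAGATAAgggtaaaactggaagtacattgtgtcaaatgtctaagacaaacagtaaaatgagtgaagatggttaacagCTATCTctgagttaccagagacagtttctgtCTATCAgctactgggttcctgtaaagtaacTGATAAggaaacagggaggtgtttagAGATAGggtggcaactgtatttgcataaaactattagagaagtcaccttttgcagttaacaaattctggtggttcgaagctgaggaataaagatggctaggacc
Il1rl1 proximal, chr1:40439379-40439678, plus strand: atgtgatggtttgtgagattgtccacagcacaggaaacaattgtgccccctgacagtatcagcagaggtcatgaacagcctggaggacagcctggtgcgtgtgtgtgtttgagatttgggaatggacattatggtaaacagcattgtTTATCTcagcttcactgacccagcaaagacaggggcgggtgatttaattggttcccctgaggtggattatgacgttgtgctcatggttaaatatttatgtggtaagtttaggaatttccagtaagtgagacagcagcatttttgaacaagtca
Il1r2, chr1:40085843-40086142, plus strand: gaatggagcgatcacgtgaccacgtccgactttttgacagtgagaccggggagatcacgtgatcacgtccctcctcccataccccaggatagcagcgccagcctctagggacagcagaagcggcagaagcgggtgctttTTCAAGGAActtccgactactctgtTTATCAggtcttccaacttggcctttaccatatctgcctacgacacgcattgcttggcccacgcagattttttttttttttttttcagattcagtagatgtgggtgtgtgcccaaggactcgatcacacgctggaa
Il17rb, chr14:30008847-30009146, minus strand: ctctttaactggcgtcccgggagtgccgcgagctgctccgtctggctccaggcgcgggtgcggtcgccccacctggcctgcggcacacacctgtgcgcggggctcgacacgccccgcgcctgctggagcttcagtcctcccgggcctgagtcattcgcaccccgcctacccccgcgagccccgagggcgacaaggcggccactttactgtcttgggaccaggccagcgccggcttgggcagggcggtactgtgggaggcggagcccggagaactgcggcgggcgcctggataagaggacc

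The distal Il1rl1 window held 5 GATA matches, at -217, -141, -110, -80 and -54 from the start, and the proximal window held 1, at -103. The Il1r2 window held 1 GATA match (-86) and 1 STAT match (-111), and the Il17rb window held 0 of either. Of 32851 promoter windows of this length, 29.8% held at least 1 GATA match, 0.0548% (18 windows) held at least 5, and 8.30% held a STAT match. The limit of 5 equals the count in the distal Il1rl1 window, and the genes were picked by fold changes in these data. These shares are therefore no test of the motifs. Among the members not printed, the Myd88 window also held 1 STAT match (-46), and those of Il1r1, Il1rap and Ptgdr2 held 0 of either. The transcript behind the Il1rl1 row that was counted starts at 40439627 in GENCODE, inside the proximal window. The one behind the counted Il1r2 row starts at 40084698, upstream of the printed Il1r2 window, which begins at 40085843. The Il1r2 matches therefore do not describe the promoter at that GENCODE start. A match describes the letters only. It does not show that a factor binds there, and reads per transcript do not tell which start was used.

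The receptors for IL-33 and IL-25 were far higher in lung Tregs than in stimulated spleen Tregs. Tissue, culture and possibly the library kit differ together between these sets, so the levels are described and not tested. Il1rl1, the IL-33 receptor, stood at 0.273 and 0.182 RPKM in the TCR libraries and 0.430 and 0.397 with TSLP. It stood at 3.91, 5.26 and 2.90 in lung control and 9.05, 7.03 and 9.29 in Crlf2-deleted libraries. All 6 lung libraries lay above all 4 spleen libraries, and on this scale the 4 groups did not overlap. The lung control mean was 17.7-fold the TCR mean in deposited RPKM, and 33.4-fold after scaling for composition. Here and below, that scaling replaces the deposited library total by the gene reads and applies edgeR's composition factors to them. Deposited RPKM refers to a larger library total, of which the gene reads were 14.95 to 23.6% in lung and 37.8 to 44.5% in spleen libraries. The change of total by itself raises lung values against spleen values, so the larger fold is not due to the composition factors alone. On the composition-scaled values the 2 lung groups overlapped for Il1rl1.

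Il17rb, the IL-25 receptor chain, followed the same order of tissues. Its RPKM was 0.178 and 0.182 in TCR, 0.161 and 0.199 in TCR + TSLP, 0.871, 1.36 and 0.865 in lung control, and 4.29, 2.34 and 3.94 in Crlf2-deleted libraries. The spleen groups overlapped with each other, and both lay below the lung groups, which did not overlap. The lung control mean was 5.73-fold the TCR mean in deposited RPKM and 10.9-fold after scaling for composition. Il1r2, the decoy receptor for IL-1, differed less between tissues. It had 1.64 and 1.94 RPKM in TCR, 2.12 and 1.79 in TCR + TSLP, 1.54, 2.01 and 3.68 in lung control and 9.70, 7.98 and 7.70 in Crlf2-deleted libraries. In deposited RPKM the Crlf2-deleted libraries lay above all others, while TCR, TCR + TSLP and lung control overlapped. After scaling for composition, lung control lay above both spleen groups as well, at 2.46-fold the TCR and 2.81-fold the TCR + TSLP mean.

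Il1r1, the signalling IL-1 receptor, was low in RPKM but also higher in lung control than in the cultures, at 0.0310 and 0.0326 RPKM in TCR, 0.104 and 0.0622 in TCR + TSLP, 0.243, 0.281 and 0.125 in lung control and 0.173, 0.201 and 0.0535 in Crlf2-deleted libraries. The lung control mean was 6.795-fold the TCR mean in deposited RPKM and 13.1-fold after scaling, with ranges apart, while Crlf2-deleted and TCR + TSLP libraries overlapped. The decoy was above the signalling receptor per length in every library. The ratio of Il1r2 to Il1r1 RPKM was 52.7 and 59.4 in TCR and 20.5 and 28.7 with TSLP. In lung it was 6.33, 7.16 and 29.5 in control and 56.2, 39.7 and 144 in Crlf2-deleted libraries, with lung control library 3 at the high end of its group. These ratios rest on few Il1r1 reads, 10 to 39 in the spleen and 13 to 56 in the lung libraries.

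Il1rap, the shared accessory chain, had 0.199 and 0.267 RPKM in TCR, 0.613 and 0.625 in TCR + TSLP, 0.711, 0.182 and 0.589 in lung control and 0.730, 0.592 and 0.554 in Crlf2-deleted libraries. In deposited RPKM the lung groups overlapped each other and the TCR + TSLP group. After scaling for composition the lung control mean was 3.875-fold the TCR mean, with ranges apart. On that scale Crlf2-deleted libraries lay above TCR + TSLP, while lung control still overlapped both of these groups. The control value of 0.182 came from 8 reads in the shallow library 2. Myd88, the adaptor, was the most abundant member per length in every library, at 11.8 and 14.3 RPKM in TCR, 20.1 and 19.9 in TCR + TSLP, 13.3, 12.8 and 20.7 in lung control and 14.7, 13.4 and 17.1 in Crlf2-deleted libraries. Its highest lung value was in control library 3, and the lung groups overlapped in deposited RPKM. After scaling for composition no groups overlapped. The scaled means were 38.1 in TCR, 46.8 in TCR + TSLP, 61.7 in Crlf2-deleted and 83.9 in lung control libraries.

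Ptgdr2 went the other way. It had 0.421 and 0.338 RPKM in TCR and 0.420 and 0.346 in TCR + TSLP, but 0, 0 and 5 reads in lung control and 1, 2 and 33 in Crlf2-deleted libraries. A count of 0 allows up to 0.376 CPM in control library 1 and 2.08 in the shallow library 2, when 3 reads are taken as the limit. Of the 36 reads in Crlf2-deleted libraries, 33 were in library 3, so that lung Ptgdr2 rested on 1 library.

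**Figure D2:**
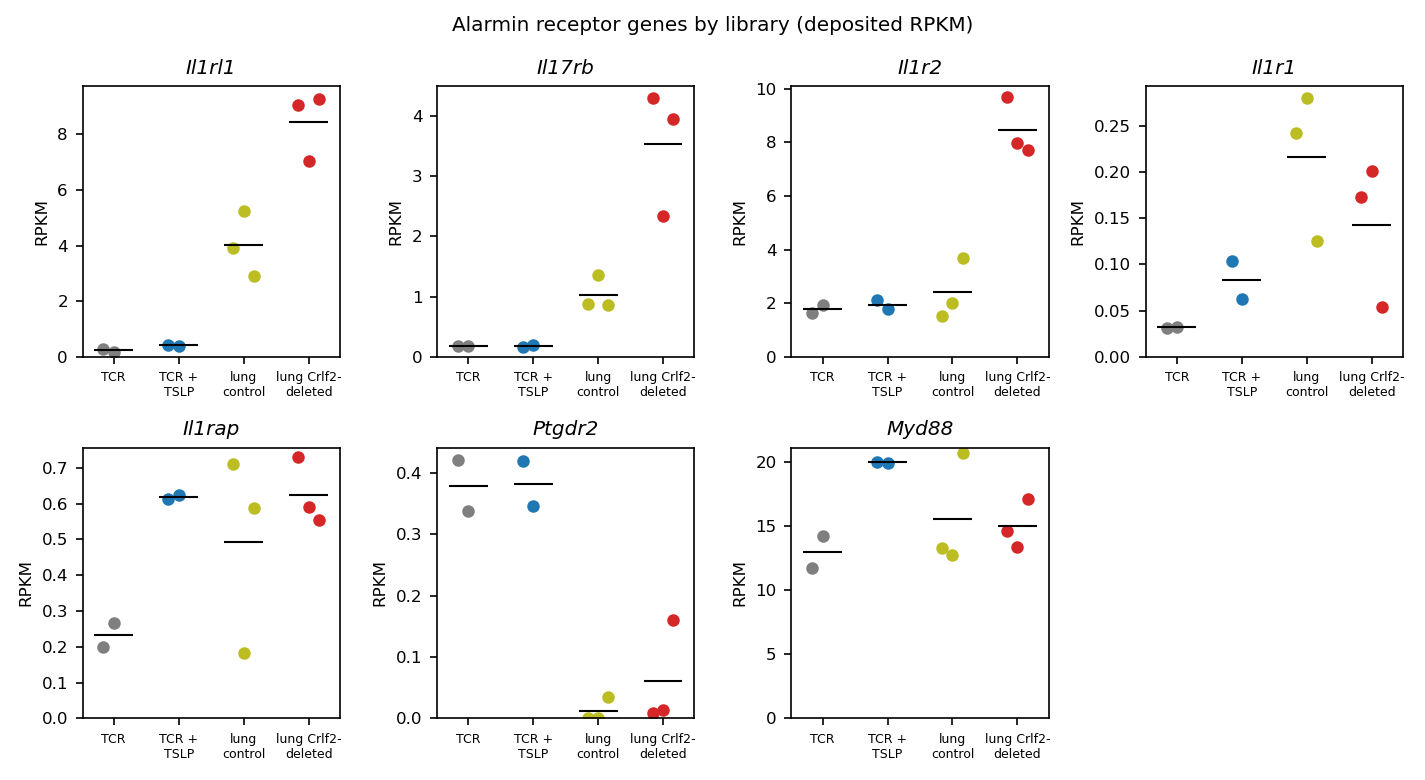
Deposited RPKM of each gene (y axis, from 0, its own scale in each panel) for the 10 libraries by group; points are libraries and bars are group means. Il1rl1 and Il17rb lie above 0.8 RPKM in lung only, Il1r2 stands out in Crlf2-deleted libraries (7.70 to 9.70), and Ptgdr2 is highest in the spleen cultures.

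Il1rl1 has a row for the long transcript, which encodes membrane-bound ST2, and one for a short transcript, which encodes soluble ST2, a secreted form that binds IL-33 away from the cell. The short row held 9 and 2 reads in TCR, 27 and 38 in TCR + TSLP, 316, 100 and 305 in lung control and 730, 742 and 975 in Crlf2-deleted libraries. As a percentage of the long row's reads this was 8.82 and 3.39 in TCR, 15.8 and 16.1 in TCR + TSLP, 35.7, 38.9 and 37.7 in lung control and 34.7, 35.9 and 26.6 in Crlf2-deleted libraries. The percentage was thus higher in all lung libraries than in all spleen libraries, and the 2 lung groups overlapped. The 2 rows share sequence (1188 bp of the 5302 bp of the long transcript in GENCODE, whose lengths differ from the 5071 bp of the deposited row), so reads in shared exons can count in both and the percentage is not a share of molecules. The shared part is 22.4% of the long transcript, with all spleen percentages below and all lung percentages above it. How evenly reads covered the transcript was not tested. Il1rap showed the same order of tissues. Its short row, a transcript that ends earlier in the gene, held 43.3 and 41.0% of the reads of the long row in TCR, 35.9 and 44.5% with TSLP, 69.0, 87.5 and 70.3% in lung control and 79.1, 63.7 and 82.2% in Crlf2-deleted libraries. The 87.5%, in the shallow control library 2, rested on 7 short-row and 8 long-row reads. The library kit may differ between the tissues, and its part in these percentages was not tested.

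**Figure D3:**
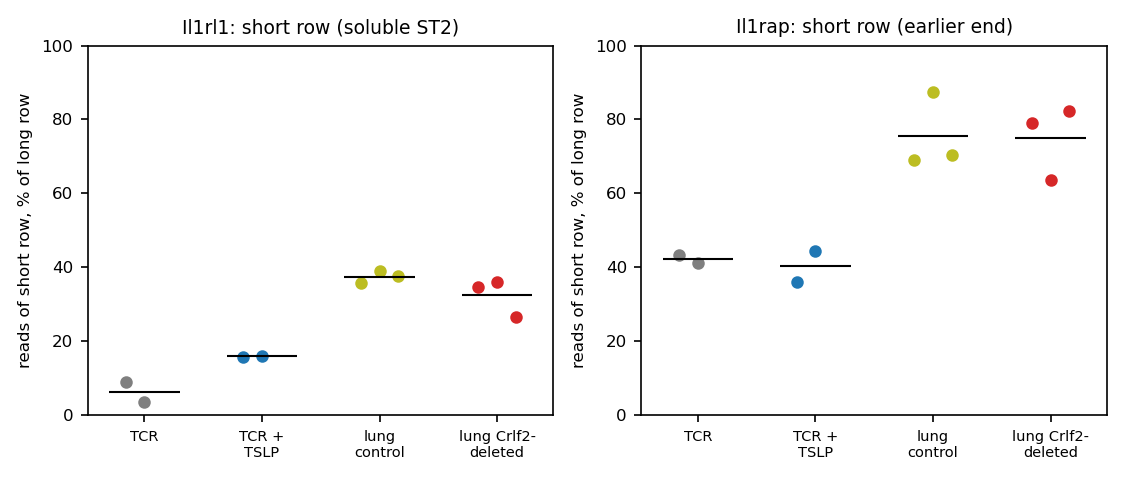
Reads of the short transcript row as a percentage of the reads of the long row (y axis) by group, for Il1rl1 (left) and Il1rap (right); points are libraries and bars are group means. In both genes every lung library lies above every spleen library, at 26.6 to 38.9% against 3.39 to 16.1% for Il1rl1. The highest Il1rap point (87.5%) rests on 7 short-row and 8 long-row reads.

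One comparison set TCR + TSLP against TCR alone. Among the alarmin receptor genes only the accessory chain passed the test. Il1rap, which IL-33 and IL-1 receptors share, had 2.60 and 3.11 CPM without and 5.89 and 5.94 with TSLP. Both TSLP libraries lay above both TCR libraries, and the mean rose 2.07-fold, from 2.85 ± 0.365 to 5.91 ± 0.0353 CPM (SD, n = 2 each), which is 1.05 on the log2 scale with an SE of 0.19 and an edgeR adjusted p of 0.00322. The call was lost when all 4 groups entered 1 fit (adjusted p = 0.192). Of the 7 genes, all tested, 1 was called, where 45.8% of the 13214 genes tested were called (22.7% as higher, 23.1% as lower), so the share among them was below the background. At an unadjusted p under 0.05 there were 2, Il1rap and Myd88, beside 53.9% of all genes.

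The IL-33 receptor itself did not pass. Il1rl1 had 3.95 and 2.35 CPM in TCR and 4.57 and 4.18 in TCR + TSLP, or 0.47 on the log2 scale with an SE of 0.26 (edgeR adjusted p = 0.173). The libraries of the groups did not overlap, but TCR library 2 was low, and the value was 0.89 (adjusted p = 0.000207) without TCR library 1 and 0.16 (adjusted p = 0.486) without TCR library 2. Myd88 had 64.1 and 69.2 CPM in TCR and 80.1 and 78.8 in TCR + TSLP (log2 fold change 0.25, SE 0.09, adjusted p = 0.051, edgeR). It lay just past the threshold and was called in 9 of 17 alternative fits, among them those without TCR library 1 (0.20, adjusted p = 0.0322) or 2 (0.33, adjusted p = 0.0003).

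The remaining members did not pass in edgeR either. Il1r1 had 11 and 10 reads without and 39 and 35 with TSLP, which per gene read is 2.24 times as many (95% counting interval, exact, 1.37 to 3.84). That interval pools the reads of each group without composition factors. It covers counting error only and leaves out the spread between libraries. The fitted log2 difference was 0.98 with an SE of 0.45 (edgeR adjusted p = 0.1075). The log2 difference of Il1r2 was -0.24 (SE 0.17, adjusted p = 0.28), that of Il17rb -0.36 (SE 0.34, adjusted p = 0.412) and that of Ptgdr2 -0.38 (SE 0.27, adjusted p = 0.279). The sign of Il1r2 and Ptgdr2 turned on the deposited RPKM scale (0.08 and 0.00 with limma), and Ptgdr2 had an adjusted p of 0.0231 (-0.59) without TCR library 2. The libraries of the groups did not overlap for 6 of the 7 genes, 4 higher and 2 lower, where 75.4% of all genes tested did not overlap (38.1% higher, 37.3% lower).

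The ligand genes Il33, Il25 and Tslp were nearly silent in the cultures. Il33 had 0 reads in all 4 spleen libraries, Il25 had 1 in TCR library 1, and Tslp had 1 and 3 in the TCR and 0 in both TCR + TSLP libraries. Some other ligand genes had more reads, such as Il1b (25 in TCR and 69 in TCR + TSLP) and Il36g (165 and 174). Of the 15 listed ligands and antagonists, 6 could be tested, of which 1 rose and 1 fell. Il1rn, the IL-1 receptor antagonist, rose from 2.26 to 3.53 CPM (log2 fold change 0.64, SE 0.22, adjusted p = 0.0439) and Il36g, an IL-1 family agonist, fell by 0.78 on the log2 scale (SE 0.28, adjusted p = 0.0496). Il1rn lost its call without either TCR + TSLP library (adjusted p = 0.222 and 0.368), and Il36g did without TCR library 1 (0.131) or either TCR + TSLP library (0.125 and 0.317).

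Of the other IL-1 receptor family chains, 3 of 6 were tested and 1 fell, Sigirr, which encodes an inhibitory member of the family. It went from 129 to 98.5 CPM (log2 fold change -0.39, SE 0.09, adjusted p = 0.00938), and it no longer passed when only library totals were used for scaling (-0.16, adjusted p = 0.147) and without TCR + TSLP library 1 or 2 (adjusted p = 0.0592 and 0.168). Of the other IL-17 receptor chains, 2 of 4 were tested and 1 fell: Il17rd went from 1.80 to 0.529 CPM (log2 fold change -1.79, SE 0.37, adjusted p = 0.00589), on 92 and 48 reads, and missed the threshold without TCR + TSLP library 2 (0.0705), in the 4-group fit (0.245) and with limma on log2(RPKM + 1) (-0.07, adjusted p = 0.101).

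Genes downstream of the receptors were called in both directions. In the list of MyD88 pathway genes, 10 of 24 tested rose, 4 fell and 10 did not pass, where 22.7% of all genes rose and 23.1% fell, with a median log2 fold change of 0.17 beside 0.01 for all genes. Traf6, the ubiquitin ligase that relays the signal, rose from 67.0 to 107 CPM (log2 fold change 0.68, SE 0.09). Chuk, which encodes the kinase IKK-alpha, rose by 0.84 (SE 0.10), Map3k8 by 0.80 (SE 0.13) and Tab2, an adaptor of the TAK1 kinase, by 0.55 (SE 0.09), with adjusted p from 0.000622 to 0.00201. In the NF-kB list 4 of 15 rose, 3 fell and 8 did not pass (median -0.04), a share of calls near the 45.8% of all genes. Nfkb1, which encodes the p105/p50 subunit, rose by 0.92 (SE 0.09), Tnfaip3, a feedback inhibitor, by 0.85 (SE 0.11) and Birc3 by 0.53 (SE 0.09), while Traf1 fell by 0.65 (SE 0.09).

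In the prostanoid list 2 of 10 rose and 2 fell. Ptgir, the prostacyclin receptor gene, rose by 0.48 (SE 0.11) and Ptges3 by 0.31 (SE 0.10), while the thromboxane receptor gene Tbxa2r fell by 0.46 (SE 0.12) and Hpgds, which encodes a prostaglandin D2 synthase, by 1.21 (SE 0.40, on 66 and 51 reads). Their adjusted p ran from 0.00927 to 0.0431, and each of the 4 was lost in the 4-group fit (0.132 to 0.694) and without TCR + TSLP library 2 (0.0851 to 0.42). Without TCR + TSLP library 1 Ptges3, Tbxa2r and Hpgds were lost too (0.295, 0.115 and 0.103). On the log2(RPKM + 1) scale Tbxa2r was at -0.07 and Hpgds at -0.08, and neither passed. In a list of genes known from ST2-positive tissue Tregs, 10 of 19 rose and 2 fell (median 0.41), beside 22.7% and 23.1% of all genes. The lists were chosen with earlier results of these data known, so such counts are no independent support. The chemokine receptor gene Ccr8 rose by 1.47 (SE 0.12), Il13 by 1.26 (SE 0.14), Tigit, an inhibitory receptor gene, by 1.06 (SE 0.09) and the transcription factor gene Irf4 by 0.82 (SE 0.09). Over all 7 lists 27 of 79 tested genes rose and 14 fell, where 22.7% of all genes rose and 23.1% fell. These 41 calls were 21 and 18 without TCR + TSLP library 1 or 2, and 12 when all 4 groups shared a fit.

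**Figure D4:**
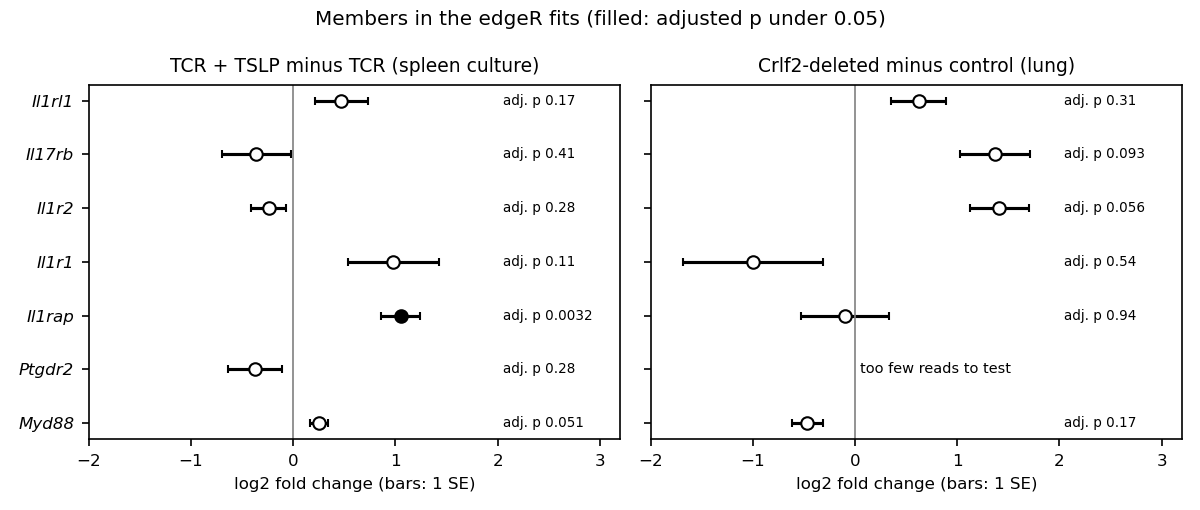
Log2 fold changes of the 7 genes in the edgeR fits (x axis, bars are 1 SE) for TCR + TSLP minus TCR (left) and Crlf2-deleted minus control (right); filled points have an adjusted p under 0.05. Il1rap on the left (1.05) is the only filled point, and Il1r2 (1.41) and Il17rb (1.37) lie farthest to the right among lung Tregs.

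The other comparison set Crlf2-deleted against control Tregs of allergic lungs, Crlf2 being the gene of the TSLP receptor chain. None of the 6 alarmin receptor genes that could be tested passed in edgeR, where 1.79% of the 12717 genes tested were called (0.771% as higher, 1.01% as lower). At an unadjusted p under 0.05 there were 4 of 6 (Il1r2, Il17rb, Myd88 and Il1rl1), beside 15.9% of all genes. DESeq2 called 2 of them, beside 867 of all 12717 genes. Limma on log2(RPKM + 1) called 3, beside 856 of all genes, of which 89.0% were higher. The libraries of the groups did not overlap for 3 of 6, beside 22.0% of all genes (10.5% higher, 11.6% lower). Il1r2 and Il17rb were higher and Myd88 was lower in every Crlf2-deleted library. Ptgdr2 had too few reads to be tested.

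Il1r2, the decoy receptor, came closest to the threshold. It had 12.3, 17.8 and 25.7 CPM in control and 58.1, 49.8 and 42.0 in Crlf2-deleted libraries. The highest control value, in library 3, lay below the lowest Crlf2-deleted value. The means were 18.6 ± 6.76 and 50.0 ± 8.05 CPM (SD, n = 3 each), 2.66-fold apart. On the log2 scale this was 1.41 with an SE of 0.29 and an edgeR adjusted p of 0.0557. The difference passed in 8 of 18 alternative fits, including DESeq2 (1.43, adjusted p = 0.000665) and the fit without lung control library 3 (1.81, adjusted p = 0.0105). That fit sets control libraries with 54.4 and 88.7 RPKM of macrophage and dendritic cell markers against Crlf2-deleted ones with 400.2 to 489, and the part of these cells in the result was not tested. It did not pass without any other single library (adjusted p from 0.0966 to 0.261).

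Il17rb, the IL-25 receptor chain, had 10.7, 18.5 and 9.27 CPM in control and 39.4, 22.4 and 33.0 in Crlf2-deleted libraries. No control library reached the lowest Crlf2-deleted one, and the means were 12.8 ± 4.95 and 31.6 ± 8.59 (n = 3 each), 2.59-fold apart. On the log2 scale the difference was 1.37 with an SE of 0.34 (edgeR adjusted p = 0.0935), and it was 1.21 (adjusted p = 0.109) without control library 3. It passed in 4 of 18 alternatives, DESeq2 (1.39, adjusted p = 0.00675), both limma fits on RPKM, and the fit of all 4 groups (1.39, adjusted p = 0.0316).

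Il1rl1, the IL-33 receptor, had 118, 176 and 76.5 CPM in control and 205, 166 and 191 in Crlf2-deleted libraries. Control library 2, the shallow one, lay within the Crlf2-deleted range, and control library 3 was the lowest. The difference was 0.62 on the log2 scale with an SE of 0.27 (edgeR, unadjusted p = 0.0484, adjusted p = 0.312). Without control library 3 it was 0.37 (adjusted p = 0.328), and without control library 2 it was 0.97 (adjusted p = 0.101). In deposited RPKM, which is not scaled for composition, the groups did not overlap and limma gave 0.93 (adjusted p = 0.0412), a scale on which the median over all genes was itself 0.21.

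Myd88 had 151, 160 and 205 CPM in control and 125, 118 and 132.5 in Crlf2-deleted libraries, the only member that was lower in every Crlf2-deleted library than in any control library. The difference of -0.47 on the log2 scale (SE 0.15, edgeR adjusted p = 0.175) passed in 0 of 18 alternatives, and was -0.31 (adjusted p = 0.247) without control library 3, which held the highest value. Il1r1 had 6.95, 8.89 and 3.12 CPM in control and 3.70, 4.48 and 1.04 in Crlf2-deleted libraries, groups that overlapped (fitted fold 0.50, adjusted p = 0.538). Il1rap had 19.4, 5.47 and 14.0 against 14.9, 12.6 and 10.3 CPM, with the control group spanning the other (log2 fold change -0.10, SE 0.43, adjusted p = 0.938).

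**Figure D5:**
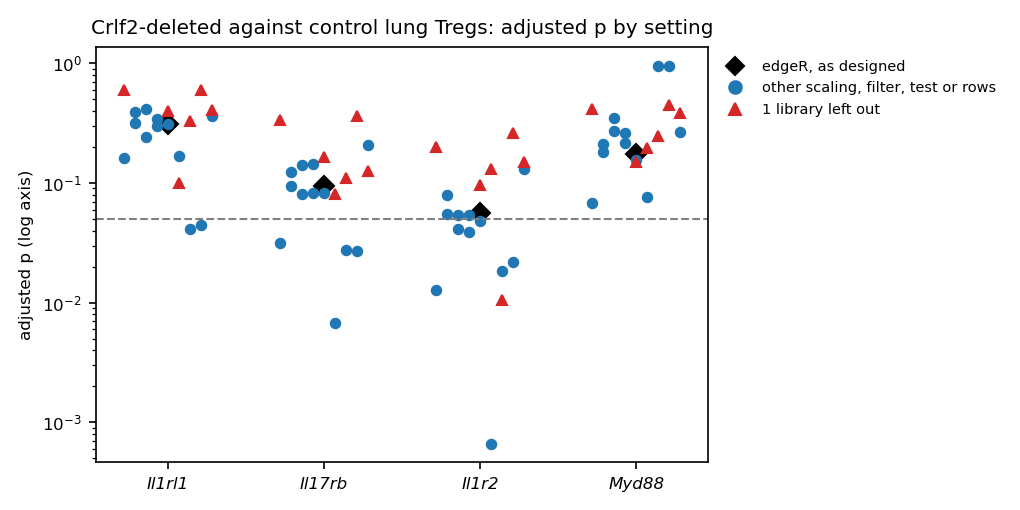
Adjusted p of 4 members for Crlf2-deleted against control lung Tregs (y axis, log scale; dashed line at 0.05), for the edgeR fit as designed (diamond), other scalings, filters, tests or rows (circles) and fits with 1 library left out (triangles). Il1r2 and Il17rb fall on both sides of the line, with 8 and 4 of 18 alternatives below it, and Myd88 has 0 below it.

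Sums of T cell markers also did not overlap between the lung groups in deposited RPKM, which is not scaled for composition. In the edgeR fit, which is scaled, none of these markers passed. Their log2 fold changes there were 0.134 to 0.545 (adjusted p from 0.129 to 0.718). The summed RPKM of 6 T cell markers (Cd3e, Cd3d, Cd3g, Cd4, Lck and Cd2) was 403, 390 and 337 in control and 645, 550 and 759 in Crlf2-deleted libraries. With that sum as the denominator, a measure added after the values were seen, Il17rb was at 0.216, 0.349 and 0.257% in control and 0.665, 0.426 and 0.520% in Crlf2-deleted libraries, so that the groups stayed apart. Il1r2 was at 0.381, 0.515 and 1.09% in control and 1.50, 1.45 and 1.02% in Crlf2-deleted libraries, where control library 3 overlapped the other group. Il1rl1 was at 0.972, 1.35 and 0.862% against 1.40, 1.28 and 1.22%, also an overlap. Myd88 stayed lower, at 3.31, 3.27 and 6.16% against 2.27, 2.43 and 2.26%. With the 6 Treg markers as the denominator Il17rb was at 0.325, 0.639 and 0.577% against 1.36, 0.812 and 1.01%, and Il1r2 overlapped again.

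In lung, the control reads of the ligand genes Il33, Il1a and Il1b lay mostly in control library 3. All 81 control reads of Il33 were in that library, beside 1, 1 and 0 in the Crlf2-deleted libraries, and Il25 and Tslp had 0 reads in all 6. The main IL-1 gene of myeloid cells, Il1b, had 56, 8 and 1258 reads in control and 104, 266 and 173 in Crlf2-deleted libraries, and Il1a had 0, 0 and 73 against 12, 6 and 20. Both follow the myeloid markers of library 3, whose part was not tested. None of the 6 testable ligands and antagonists, of 4 other IL-1 receptor and 4 other IL-17 receptor chains, of 25 MyD88 pathway genes and of 12 prostanoid genes passed in edgeR. At an unadjusted p under 0.05 there were 2, 1, 0, 2 and 4 of them in this order, beside 15.9% of all genes. DESeq2 called 0, 0, 0, 1 and 3, beside 867 of all 12717 genes. Il33, Il25, Il1a, Il1b and Tslp are named as ligands, chosen after their values were seen.

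In the NF-kB list 2 of 15 genes rose and 1 fell, where 0.771% of all genes rose and 1.01% fell (median log2 fold change -0.12, beside -0.04 for all genes). Nfkb1 rose from 139 ± 23.0 to 301 ± 64.5 CPM (n = 3 each), or by 1.12 on the log2 scale (SE 0.19, adjusted p = 0.0344), Tnfaip3 from 648 to 961 (0.57, SE 0.11, adjusted p = 0.0459), and Bcl3, an atypical IkB family member, fell by 0.83 (SE 0.15, adjusted p = 0.0403). Nfkb1 and Tnfaip3 were also higher with TSLP in the spleen cultures, where Bcl3 rose too (0.39, adjusted p = 0.0107). The list of ST2-positive Treg genes had 7 of 20 higher and 0 lower (median 0.86), beside the same 0.771% and 1.01%. Both lists were chosen with earlier results of these data known. Their counts beside all genes are therefore a description and no independent support. Il10, the anti-inflammatory cytokine gene, rose from 43.1 ± 18.4 to 200.2 ± 17.4 CPM (log2 fold change 2.27, SE 0.29, adjusted p = 0.016). Ccr8 rose by 1.85 (SE 0.26), Cxcr6, a chemokine receptor gene of tissue T cells, by 1.67 (SE 0.24) and the transcriptional regulator gene Id2 by 1.09 (SE 0.15). The 10 calls over all lists were 15 without control library 3, but 0 without control library 1, Crlf2-deleted library 1 or Crlf2-deleted library 3, 2 without control library 2 and 7 without Crlf2-deleted library 2.

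The genes whose levels followed a member most closely were sought by Pearson's r of log2(CPM + 1) over the 10 libraries, among 9685 genes. The libraries fall into a spleen and a lung set, so a high r describes mainly the gap between them, and no p is given. Il1rl1 was followed most closely by Fam129a (r = 0.998; mean RPKM 2.35 in TCR, 3.79 with TSLP, 14.8 in lung control and 30.4 in Crlf2-deleted libraries), Rnf125 (0.997) and Sorl1 (0.997). Il17rb was followed by Dkk3 (0.995; 0.00202, 0.0038, 0.746 and 3.89 RPKM), Ttc39c (0.995) and Cxcr6 (0.993). Il1r2 was followed by Calca (0.984; 0.0447, 0.0705, 1.53 and 15.4 RPKM), which encodes the neuropeptide CGRP, Nmur1 (0.981), a receptor for neuromedin U known from group 2 innate lymphoid cells, and Cib2 (0.980). Myd88 was followed by Vwa5a (0.970), Cd209a (0.969), a dendritic cell lectin gene, and Pdlim5 (0.967). Il1r1, Il1rap and Ptgdr2 stayed under 1 RPKM in every group mean and were not compared in this way.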

How the data were processed

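RNA of 10 mouse Treg libraries was measured as whole read counts per RefSeq transcript, 31682 rows per library, and as RPKM, both deposited by the authors. Read from the submitters' processing notes are the tools bedtools 2.25.0, SAMtools 0.1.8, edgeR, TopHat2 2.2.1 and Bowtie2 2.2.6, and the build mm10. No source used here states how reads were counted, on which strand, or what became of multimapping ones. The deposited RPKM refer to a library total larger than the summed gene reads, so they understate levels where that share is small.

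Each symbol was represented by its row of highest mean reads (4343 of 23992 had several). Counts were tested in edgeR 4.0.16 (R 4.3.3; quasi-likelihood, TMM, filterByExpr with a minimum of 10, robust, two-sided, Benjamini-Hochberg, threshold 0.05) over all genes of each comparison; CPM are TMM-scaled. DESeq2 1.42.0 and limma 3.58.1 on log2(RPKM + 1) or log2(RPKM + 0.1) were alternatives, with other scalings, filters, a replicate block, 1 fit of all groups, summed transcripts, loess length and GC trends (span 0.3) and left-out libraries. Counting intervals are exact at 95% and, like the limit of 3 reads for a count of 0, cover counting error only. Replicates differed by more than sampling noise (chi-square of 6.15 to 177 per degree of freedom). On simulated counts edgeR recovered 100 of 100 genes changed 2-fold in the TSLP design (13045 genes) and 39 of 100 changed 2-fold or 87 of 100 changed 4-fold in the lung design (12448 genes). False calls were 19 of 219 and 9 of 135. The changed genes were drawn above a set abundance, and the simulated spread followed the trend with abundance. Recovery was therefore not measured for the least abundant genes or for genes of larger spread.

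The members and gene lists were chosen with earlier results of these data known. Named were the 7 members, Crlf2, up to 4 genes per list with the smallest p among those called, and the 3 genes most like each member of at least 1 RPKM. Of the listed symbols, 3 matched no row and 6, with Ptgdr2, an older symbol. GENCODE gave transcript structures and RefSeq gene positions and promoters.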

Additional observations from a re-analysis of the deposited data

How the results depend on the processing

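The limits are few libraries, 1 shallow lung library, and markers of other cells in all lung libraries, of most kinds highest in control library 3. Deviations of same-numbered libraries correlated at 0.10, -0.15 and -0.04 in lung, which shows no clear pairing by replicate number. In the cultures they correlated at -0.21, and those of crossed numbers at 0.21. With 2 libraries per group these values mirror each other by construction, so they cannot tell whether the cultures were paired. A replicate block gave 5817 called genes for TSLP (6050 without it) and 121 in lung (227 without it), where the list genes called fell from 10 to 4. With the numbers crossed between the spleen groups as a block, chosen after seeing the data, there were 7107 called genes and 2 called members.

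For TSLP, the 4-group fit gave 1356 called genes, 12 list genes (41 in the design as fixed) and 0 members. Leaving out 1 library gave 3212 to 8624 genes, 18 to 50 list genes and 1 to 3 members. The members called were 3 with library totals or either limma fit and 2 without the filter or with length or length and GC trends removed. Of the called genes 49.6% were higher, against 71.7% with library totals and 82.0% with limma on log2(RPKM + 1), whose median over all genes was 0.24 and 0.20. The sign of Il1r2 turned with limma (0.083 and 0.122) and with length (0.06) or length and GC trends removed (0.037), that of Ptgdr2 with limma (0.004 and 0.012), and that of Crlf2 with length and GC trends removed (0.121).

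In lung, the called genes were 867 with DESeq2, 856 and 804 with limma, 873 in the 4-group fit, 134 with summed transcripts, 96 and 102 with length or length and GC trends removed, and 4 to 532 with 1 library left out. The list genes were 18, 16, 16, 17, 5, 5 and 5 in the same order, and 0 to 15 with 1 library left out. The members were 2 with DESeq2 and in the 4-group fit, 3 with either limma fit, 1 with library totals, no filter or a minimum count of 30, and 0 to 1 with 1 library left out. Of the called genes 43.2% were higher, against 70.6% with library totals, 89.0% with limma and 26.4% with the block. Il1rap turned sign with library totals (0.103), limma (0.138 and 0.418), the replicate block (0.034) and without control library 1 (0.272) or Crlf2-deleted library 3 (0.043), and ranged from -0.387 to 0.272 with 1 library left out. The cause of these shifts was not tested. The other members' fold changes kept their direction in all 108 lung values but those 6, with 14 newly past the threshold. Of 144 values of other named lung genes, 45 no longer passed.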
